A study of Mus musculus with 19 samples.

Results

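Cxcl1, Cxcl2, Cxcr2, Cxcr4 and Cxcl12 encode chemokines and chemokine receptors that steer neutrophils between bone marrow, blood and tissue. The 5 genes were chosen by symbol, with no measured value in the rule. On the mouse Illumina BeadChip, a 1-colour array on which each probe is read as the brightness of its beads, 8 of 25697 probes carried these symbols: 1 each for Cxcl1, Cxcl2 and Cxcr4, 2 for Cxcr2 and 3 for Cxcl12. All 8 probes passed the filter on detected signal, and with each gene read from its brightest probe the genes were 5 of 9523 tested.

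RNA of 19 neutrophil preparations was measured, 1 array each. The SM16 group (n = 5) held tumour-associated neutrophils taken after treatment with SM16, an inhibitor of Alk5, the type I receptor kinase of TGF-beta. The TAN group (n = 3, numbered 1, 2 and 4) held tumour neutrophils with no such treatment named, the G-MDSC group (n = 4) splenic neutrophils of tumour-bearing mice, called granulocytic myeloid-derived suppressor cells, and the NN group (n = 7) naive neutrophils of bone marrow. The labels describe the animals of all groups as clonal and give no strain, age, tumour, dose or duration. They do not tie replicates to separate animals, and the p-values therefore measure no more than the spread between samples, which may be technical.

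Cxcl1 and Cxcl2 are secreted by activated myeloid and stromal cells and draw neutrophils into tissue through the receptor Cxcr2. Cxcl12, made by stromal cells of the marrow, holds neutrophils there through Cxcr4, so that Cxcr2 and Cxcr4 pull mature neutrophils in opposite directions at the marrow wall. Circulating neutrophils that age are known to raise Cxcr4 and to lower Cxcr2.

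The ligand genes Cxcl1 and Cxcl2 lie side by side in the mouse genome, which is why their upstream sequences are shown. In GRCm38, Cxcl1 spans 90891245 to 90893121 and Cxcl2 spans 90903899 to 90905938 on chromosome 5, with 10777 bases between them. The 250 bases before each start, from RefSeq on GRCm38.p6, plus strand, are chr5:90890995-90891244 and chr5:90903649-90903898. Capitals mark a match to the NF-kB motif, the binding site of the main transcription factor of inflammatory signalling.
Cxcl1: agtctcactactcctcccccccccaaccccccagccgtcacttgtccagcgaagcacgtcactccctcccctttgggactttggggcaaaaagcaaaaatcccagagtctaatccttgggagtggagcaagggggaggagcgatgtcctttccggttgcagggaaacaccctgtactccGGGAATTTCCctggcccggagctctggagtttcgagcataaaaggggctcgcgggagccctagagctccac
Cxcl2: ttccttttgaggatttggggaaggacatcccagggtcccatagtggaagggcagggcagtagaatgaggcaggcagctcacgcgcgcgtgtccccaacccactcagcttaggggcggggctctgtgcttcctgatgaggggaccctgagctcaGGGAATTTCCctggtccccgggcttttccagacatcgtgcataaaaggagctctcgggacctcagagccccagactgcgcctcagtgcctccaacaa
The match lay 71 to 62 bases before the start of Cxcl1 and 97 to 88 bases before that of Cxcl2, and the longest run the upstream sequences shared, 14 bases, contained it. The motif allows several bases at some positions, and both matches read GGGAATTTCC. The motif search covered both strands of windows from 250 bases before to 50 after each start, in which 5.8% of 32851 promoters held an NF-kB match. Cxcl2 also held 3 and Cxcl1 held 1 match to the Smad element CAGAC, which 49.6% of promoters held, and Cxcl1 held 1 match to the hypoxia core ACGTG (19.6% of promoters). The AP-1 motif TGANTCA (7.81% of promoters) had 0 matches in both. The windows of Cxcr2 (chromosome 1, gene from 74153994 to 74161246), Cxcr4 (chromosome 1, 128588199 to 128592299) and Cxcl12 (chromosome 6, 117168535 to 117181368) held 0 matches of the 4 motifs, which says only that these letters are not in these windows.

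Across the arrays, detected probes numbered 10880 to 12492 for SM16, 9599 to 10773 for TAN, 11283 to 11435 for G-MDSC and 10660 to 11807 for NN. All 11 neutrophil markers with an annotated probe were detected on all 19 arrays, while Ly6g and Fpr1 were not measured by an annotated probe. The lowest signal of an array was 10.3 to 17.7 on all G-MDSC arrays and on NN replicates 6 and 7, and 47.5 to 65.5 on the others, a split that the labels do not name. It is treated as a batch below, and G-MDSC shares no array of it with SM16 or TAN. Within TAN, replicates 1 and 2 had 9697 and 9599 detected probes, the fewest of all 19 arrays, and replicate 4 had 10773. Replicate 4 differed from these arrays, and it correlated across genes with the SM16 arrays at r = 0.964 to 0.976 but with TAN replicate 1 at 0.881. Many TAN results are therefore also given with replicate 4 alone, taken to vary like the other groups. G-MDSC replicate 1 stood apart by its B cell markers, whose 4 measured genes summed to 11092 on the linear scale, against 504 to 685 on the other G-MDSC arrays. Levels are log2 normalized intensities, differences are log2 differences between group means from limma over all 4 groups, and a difference counted as called where its p, adjusted by Benjamini-Hochberg across the 9523 genes, was under 0.05. The number of arrays limits the precision. In such bulk samples, fewer cells of a type and less RNA per cell cannot be told apart.

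Cxcl1 was bright in tumour neutrophils, lower in the spleen and not detected in the marrow. Its level was 12.28, 12.28, 12.48, 12.31 and 13.13 on the SM16 arrays, 13.85, 13.78 and 13.85 on the TAN arrays, 11.96, 7.32, 8.31 and 8.66 on the G-MDSC arrays, and between 4.40 and 5.21 with a median of 4.64 on the NN arrays. No array of 1 group overlapped an array of another, so the order of the levels was TAN, SM16, G-MDSC, NN. The signal passed detection on 0 of 7 NN arrays, which leaves only bounds against that group. Cxcl1 was at least 333-fold higher in TAN, at least 133-fold higher in SM16 and at least 12.3-fold higher in G-MDSC than in NN (adjusted p = 3.79e-11, 2.15e-11 and 9.24e-07). Against G-MDSC it was higher by 4.76 (SE 0.64, adjusted p = 3.48e-06) in TAN and by 3.43 (SE 0.56, adjusted p = 2.73e-05) in SM16. Without G-MDSC replicate 1, whose Cxcl1 level exceeded the other G-MDSC arrays by more than 3, these differences were 5.73 and 4.40 and that of G-MDSC minus NN was 3.33, all still called. The bounds against NN hold for background-corrected signals: without that correction the log2 differences against NN were 7.17 in TAN, 5.85 in SM16 and 2.70 in G-MDSC, each smaller than its bound and still called.

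Between SM16 and TAN, Cxcl1 differed by -1.33 (SE 0.61, 95% interval -2.60 to -0.06), 2.52-fold lower in the SM16 group, and missed the threshold after adjustment (adjusted p = 0.0796). All 5 SM16 arrays lay below all 3 TAN arrays, as did the arrays of 1 group or the other for 23.6% of all genes, in either direction. The fit takes 1 spread from all 4 groups, and the SD of Cxcl1 was 0.36 in SM16, 0.04 in TAN, 2.01 in G-MDSC and 0.30 in NN. With only SM16 and TAN in the fit the same difference was called (adjusted p = 0.00614), and it was called within the batch that holds both groups (adjusted p = 0.000826), with array weights (-1.38, adjusted p = 0.00100) and with median scaling (-2.08, adjusted p = 0.00828). TAN replicate 4 alone gave -1.35 (adjusted p = 0.493), and over all 19 alternatives the adjusted p ran from 0.000826 to 0.493.

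Cxcl2 followed the same order of tissues but was already high in the spleen. Its level was 15.66, 15.62, 15.36, 15.57 and 15.41 in SM16, 15.34, 15.19 and 15.46 in TAN, 14.67, 13.30, 13.50 and 13.42 in G-MDSC, and between 5.36 and 7.98 with a median of 6.82 in NN, detected on 6 of 7 NN arrays. The NN arrays lay far below all others, and the G-MDSC arrays lay below every tumour array. Against NN, Cxcl2 rose by 8.73 (SE 0.35) in SM16, 8.53 (SE 0.42) in TAN and 6.92 (SE 0.38) in G-MDSC (adjusted p = 2.53e-14, 8.14e-13 and 8.39e-12). These are folds of 423, 369.9 and 121, and without background correction the differences were 7.89, 7.69 and 6.08, all called. Against G-MDSC it rose by 1.80 in SM16 and by 1.61 in TAN (adjusted p = 0.000745 and 0.00518). The tumour against spleen calls were lost with a term for the batch, which gave 1.13 (adjusted p = 0.182; 1.07e-05 to 0.182 over 18 alternatives) and 0.93 (adjusted p = 0.288; 0.000153 to 0.288 over 17 alternatives).

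In the tumour, Cxcl2 did not separate the SM16 from the TAN arrays. The groups overlapped, and the difference of 0.19 (95% interval -0.73 to 1.12, adjusted p = 0.747) turned to -0.49 with median scaling. The Cxcl2 probe read 56.8% to 78.5% of the highest signal of its array in SM16 and 59.5% to 68.7% in TAN. Whether the SM16 minus TAN differences of Cxcl1 and Cxcl2 differ from each other was not tested.

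**Figure D1:**
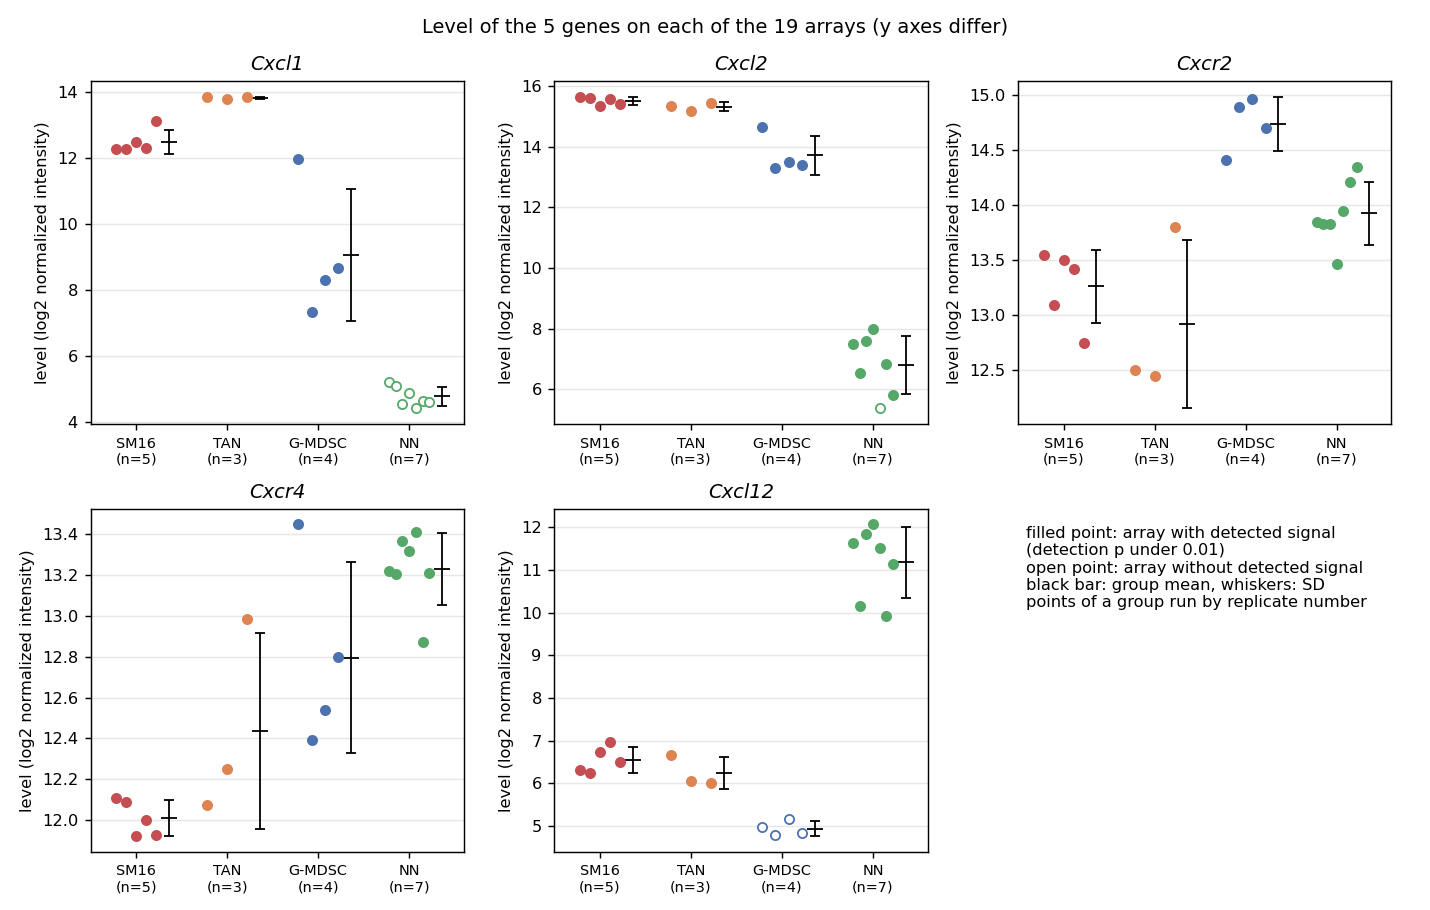
Log2 normalized intensity of each of the 5 genes on each array, in a panel per gene, for SM16, TAN, G-MDSC and NN; filled points are arrays with detected signal, open points arrays without, bars the group mean and whiskers the SD. Cxcl1 lay between 13.78 and 13.85 on the TAN arrays and between 4.40 and 5.21, undetected, on the NN arrays, while Cxcl12 lay between 9.91 and 12.07 on the NN arrays and was undetected on all G-MDSC arrays.

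Cxcr2, the receptor of Cxcl1 and Cxcl2, was highest in splenic neutrophils. Its level was 13.54, 13.09, 13.50, 13.41 and 12.75 in SM16, 12.50, 12.45 and 13.80 in TAN, 14.41, 14.89, 14.96 and 14.70 in G-MDSC, and between 13.46 and 14.34 with a median of 13.85 in NN. Every G-MDSC array lay above every array of the other groups, and TAN replicate 4 lay inside the NN range while TAN replicates 1 and 2 lay below all NN arrays. The group means ran from G-MDSC through NN and SM16 to TAN, and SM16 and TAN did not differ beyond their spread (0.34, 95% interval -0.20 to 0.89, adjusted p = 0.293). That difference turned to -0.54 with TAN replicate 4 alone and to -0.33 with median scaling, and it was called as higher in SM16 without TAN replicate 4 (0.78, adjusted p = 0.00357) and with array weights (0.83, adjusted p = 2.05e-05). Over its 20 alternatives the adjusted p ran from 2.05e-05 to 0.813.

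Against G-MDSC, Cxcr2 fell by 1.82 (SE 0.27, adjusted p = 1.28e-05) in TAN, 3.53-fold, and by 1.48 (SE 0.24, adjusted p = 2.55e-05) in SM16, 2.79-fold. Both kept their call with the batch term (-1.33 and -0.99, adjusted p = 0.0109 and 0.0406), and the TAN call held with replicate 4 alone (-0.94, adjusted p = 0.0163). Over their 18 and 19 alternatives the adjusted p stayed at 0.0406 or less. Both falls kept their call under every alternative run for them.

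Against NN, Cxcr2 changes were smaller and depended on the arrays used. Cxcr2 fell by 1.01 (SE 0.25, adjusted p = 0.00125) in TAN, but TAN replicate 4 alone gave -0.12 (adjusted p = 0.754), and it fell by 0.66 (SE 0.21, adjusted p = 0.00869) in SM16, but the arrays of the batch that holds both groups gave -0.52 (adjusted p = 0.0678). In G-MDSC it rose by 0.81 (SE 0.22, adjusted p = 0.00525), 1.76-fold. NN replicates 6 and 7, the NN arrays in the batch of the G-MDSC arrays, had the highest Cxcr2 levels of their group, 14.21 and 14.34, and against those alone the difference was 0.46 (adjusted p = 0.0648). With the batch term it was 0.46 too (adjusted p = 0.270). Over the alternatives of these 3 differences the adjusted p ran from 6.54e-10 to 0.869 for TAN, 0.000464 to 0.0995 for SM16 and 2.24e-07 to 0.270 for G-MDSC. The 11 neutrophil markers, which do not include Cxcr2 or Cxcr4, summed to 213097 to 292136 on the linear scale in SM16, 213094 to 238455 in TAN, 297267 to 304512 in G-MDSC and 350730 to 371632 in NN. Of these markers 6 were called lower and 2 higher in SM16 minus NN, where 31.7% and 32.9% of all genes were. In TAN minus NN 7 were lower and 2 higher, against 30% and 39.3% of all genes. In G-MDSC minus NN 5 were lower and 3 higher, against 23.5% and 22.5%. The part of these markers in the falls of Cxcr2 and Cxcr4 in the tumour groups was not tested.

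The second Cxcr2 probe was dim. It was detected on all 4 G-MDSC arrays, on NN replicate 6 and on no SM16 or TAN array, and it too was at its highest in G-MDSC (5.82 to 6.33, against 4.51 to 4.79 in SM16, 4.56 to 5.08 in TAN and 4.58 to 5.44 in NN). By this probe Cxcr2 was at least 1.20-fold lower in TAN and at least 1.69-fold lower in SM16 than in G-MDSC, and at least 1.57-fold higher in G-MDSC than in NN (adjusted p = 5.66e-05, 1.07e-06 and 9.67e-06 over all probes past the filter). Its TAN minus NN and SM16 minus NN differences were -0.04 and -0.31, without a call (adjusted p = 0.867 and 0.0991).

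Cxcr4, the receptor of Cxcl12, was measured by 1 probe that was bright on all arrays, and its group means ran from NN through G-MDSC and TAN to SM16. Its level was 12.11, 12.09, 11.92, 11.997 and 11.93 in SM16, 12.08, 12.25 and 12.98 in TAN, 13.45, 12.39, 12.54 and 12.80 in G-MDSC, and between 12.87 and 13.41 with a median of 13.22 in NN. Every SM16 array lay below every NN and every G-MDSC array, whereas TAN replicate 4 and G-MDSC replicate 1 lay inside or above the NN range. Cxcr4 fell by 1.22 (SE 0.16, adjusted p = 1.68e-06) in SM16 against NN, 2.33-fold, and by 0.79 (SE 0.19, adjusted p = 0.00131) in SM16 against G-MDSC, 1.72-fold. The SM16 minus NN fall was -1.30 within the batch (adjusted p = 1.67e-06), and the adjusted p stayed at 3.93e-05 or less over its 22 alternatives and at 0.0101 or less over the 18 of SM16 minus G-MDSC.

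The other Cxcr4 differences depended on which arrays were used. TAN fell by 0.79 against NN (SE 0.19, adjusted p = 0.00126), yet with TAN replicate 4 alone the difference was -0.25 (adjusted p = 0.451; 1.64e-09 to 0.451 over 21 alternatives). G-MDSC differed from NN by -0.44 (SE 0.18, adjusted p = 0.0502), which was called without G-MDSC replicate 1 (-0.65, adjusted p = 0.00212) or NN replicate 6 (-0.49, adjusted p = 0.0288), in a fit of those 2 groups (adjusted p = 0.0398) and with array weights (-0.69, adjusted p = 2.18e-06), and which turned to 0.04 with median scaling (2.18e-06 to 0.860 over 21 alternatives). TAN differed from G-MDSC by -0.36 (95% interval -0.81 to 0.09, adjusted p = 0.154), by -0.63 without TAN replicate 4 (adjusted p = 0.00888) and by 0.19 with that array alone. SM16 differed from TAN by -0.43 (95% interval -0.86 to 0.00, adjusted p = 0.0939). This difference was called with median scaling (-1.03, adjusted p = 0.000371), within the batch (adjusted p = 0.0454) and with TAN replicate 4 alone (-0.97, adjusted p = 0.0395), and over its 19 alternatives the adjusted p ran from 0.000371 to 0.507.

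**Figure D2:**
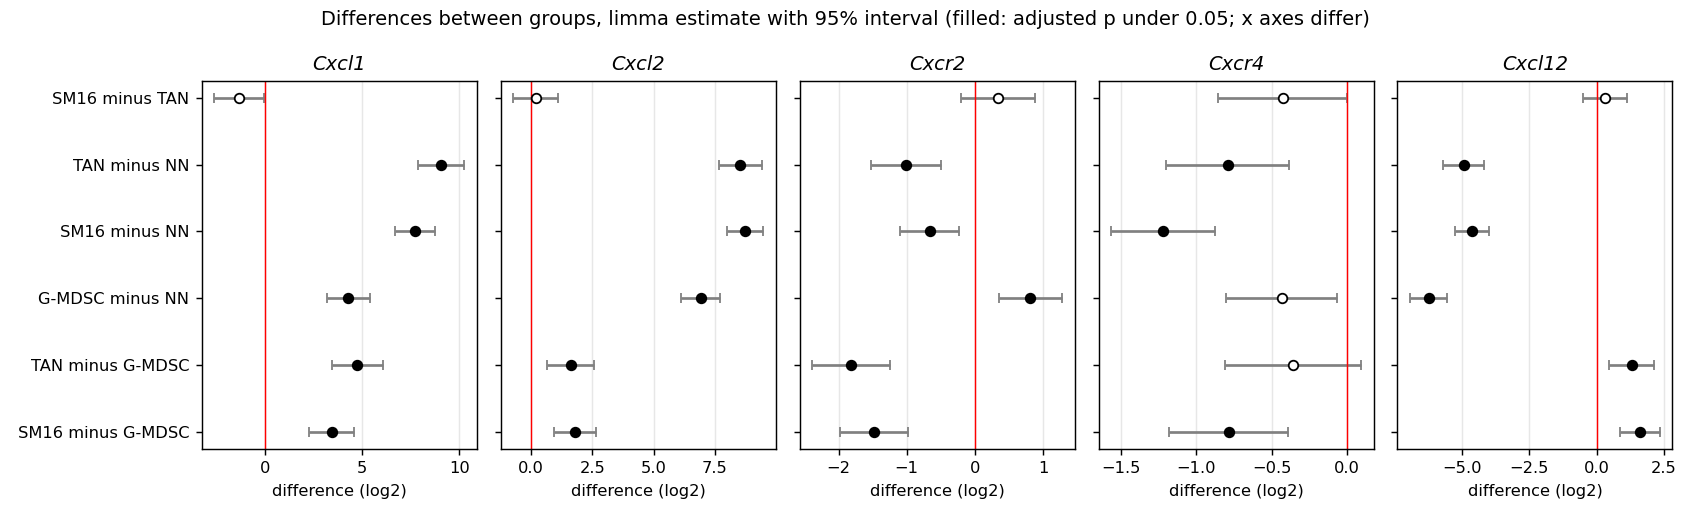
Differences between groups for each gene, as the limma estimate on the log2 scale with its 95% interval, in a panel per gene with 6 comparisons from top to bottom; filled points had an adjusted p under 0.05 and the red line marks 0. In SM16 minus TAN all 5 points are open, while Cxcl1 and Cxcl2 lie above 0 and Cxcl12 lies below 0 in each comparison with NN.

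Cxcl12, the marrow ligand of Cxcr4, was high in the marrow preparations alone. Its brightest probe stood at 6.32, 6.24, 6.74, 6.96 and 6.49 in SM16, at 6.67, 6.06 and 5.997 in TAN, at 4.98, 4.78, 5.17 and 4.83 in G-MDSC, and at 11.62, 10.15, 11.83, 12.07, 11.51, 9.91 and 11.13 in NN. It was detected on every SM16, TAN and NN array and on 0 of 4 G-MDSC arrays, and the NN arrays lay above all others. Cxcl12 fell by 4.93 (SE 0.36, adjusted p = 3.75e-10) in TAN and by 4.63 (SE 0.31, adjusted p = 5.05e-11) in SM16 against NN, 30.6-fold and 24.7-fold, and was at least 54.7-fold lower in G-MDSC (adjusted p = 5.37e-12). Without background correction the log2 differences against NN were smaller, -3.93 in TAN, -3.77 in SM16 and -4.46 in G-MDSC, and all were called. The SM16 and TAN arrays overlapped (0.31, 95% interval -0.50 to 1.11, adjusted p = 0.536; -0.08 by the second probe).

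Both other Cxcl12 probes were detected on NN arrays only, on 7 and 6 of them, and were called lower in SM16, TAN and G-MDSC against NN. By the second probe the bounds were at least 3.62-fold, 2.56-fold and 3.52-fold lower, and by the third at least 2.38-fold, 1.68-fold and 2.31-fold. The small excess of the tumour groups over G-MDSC was seen by the brightest probe alone. There Cxcl12 was at least 2.21-fold higher in SM16 (adjusted p = 0.000592) and at least 1.79-fold higher in TAN (adjusted p = 0.00848), whereas the second probe gave -0.08 and -0.0037 and the third -0.24 and -0.32, all undetected in these groups and without a call. Even by the brightest probe these calls were lost without background correction (0.68 and 0.53, adjusted p = 0.0651 and 0.204), in the authors' deposited normalized table (0.71 and 0.55, adjusted p = 0.0605 and 0.193) and with the batch term (0.69 and 0.38, adjusted p = 0.316 and 0.603), and in TAN also with replicate 4 alone (1.06, adjusted p = 0.149). Over all alternatives the adjusted p ran from 1.72e-05 to 0.822 for SM16 and from 0.00114 to 0.993 for TAN.

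**Figure D3:**
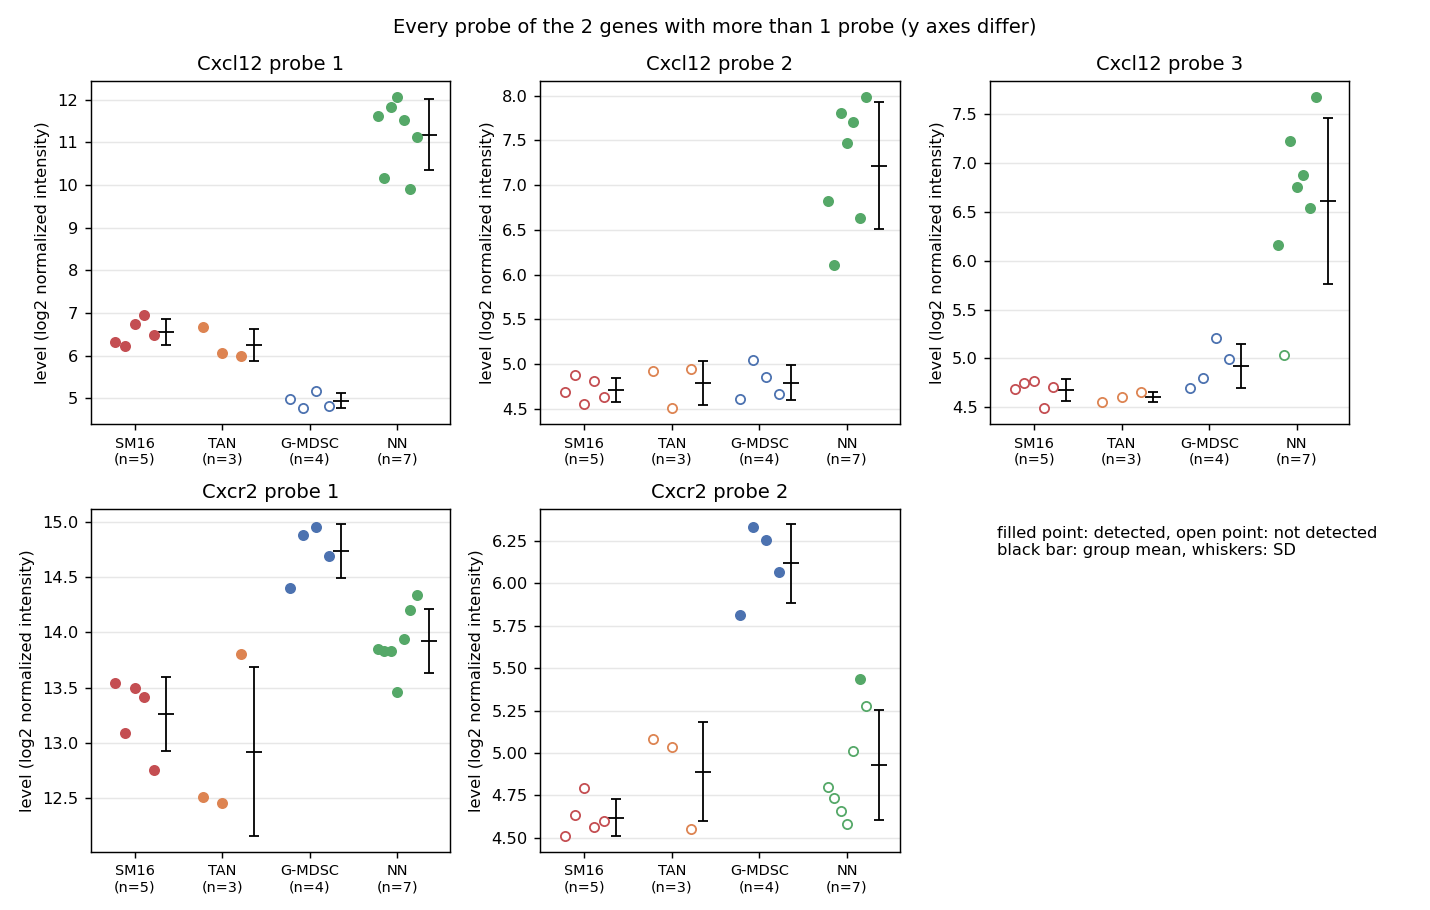
Log2 normalized intensity of every probe of Cxcl12 and Cxcr2 on each array for SM16, TAN, G-MDSC and NN; filled points are detected, open points not detected, bars the mean and whiskers the SD. All 3 Cxcl12 probes are highest on NN arrays, and both Cxcr2 probes are highest on G-MDSC arrays, where the second lies between 5.82 and 6.33.

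Counted over the 5 genes, limma called 0 in SM16 minus TAN, a comparison in which 46% of all 9523 genes were called, 17.8% higher and 28.2% lower. In that comparison 1 of the 5, Cxcl1, had an unadjusted p under 0.05, and alternatives called 0 to 2 of them. All 5 were called in TAN minus NN (69.3% of all genes, 39.3% higher and 30% lower) and in SM16 minus NN (64.5%, 32.9% higher and 31.7% lower), with Cxcl1 and Cxcl2 higher and Cxcr2, Cxcr4 and Cxcl12 lower. In G-MDSC minus NN 4 were called (45.9% of all genes, 22.5% higher and 23.5% lower), Cxcl1, Cxcl2 and Cxcr2 higher and Cxcl12 lower. In TAN minus G-MDSC 4 were called (63.2%, 37.6% higher and 25.6% lower), with Cxcl1, Cxcl2 and Cxcl12 higher and Cxcr2 lower. In SM16 minus G-MDSC all 5 were (62.4%, 32.7% higher and 29.8% lower), with Cxcr4 lower as well. Median scaling moved the balance of all genes called in G-MDSC minus NN to 3049 higher and 1543 lower, against 2138 and 2235, in TAN minus G-MDSC to 2505 and 3137, against 3585 and 2437, and in SM16 minus G-MDSC to 2135 and 3959, against 3112 and 2834. Comparisons with NN share the NN arrays, and those with G-MDSC share the G-MDSC arrays. With TAN replicate 4 alone, 1 gene was called in SM16 minus TAN (4.74% of all genes), 3 in TAN minus NN (49.7%) and 3 in TAN minus G-MDSC (43.8%).

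Among other ligands of Cxcr2, Cxcl3 was seen in the tumour and Ppbp mainly in the marrow. Cxcl3 stood at 6.26, 5.38, 6.88, 5.65 and 5.81 in SM16 and at 8.97, 8.66 and 7.42 in TAN, and was detected on 0 of 4 G-MDSC and 0 of 7 NN arrays. It fell by 2.36 (SE 0.30, adjusted p = 1.83e-05) in SM16 against TAN with no overlap, and by 1.43 with TAN replicate 4 alone (adjusted p = 0.0271). Ppbp, whose product is the platelet chemokine precursor of Cxcl7, averaged 8.25 ± 0.51 in SM16 (SD, n = 5), 7.21 ± 1.04 in TAN (n = 3), 5.39 ± 0.52 in G-MDSC (n = 4) and 13.59 ± 0.51 in NN (n = 7). It fell by 5.34 in SM16 and by 6.37 in TAN against NN (adjusted p = 1.13e-11 and 1.54e-11). The SM16 minus TAN rise of 1.04 (adjusted p = 0.0420) was gone with TAN replicate 4 alone (-0.07, adjusted p = 0.971). Cxcl15 was detected on 1 of 19 arrays, and Cxcl5 was not measured by an annotated probe.

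Platelet and megakaryocyte markers, a list added after the data were seen, were measured by 6 genes, Ppbp itself and Pf4 among them. Their summed linear level was 11456 to 17852 in SM16, 5352 to 7804 in TAN, 279 to 354 in G-MDSC and 18115 to 41398 in NN, and all 6 were detected on every NN array. Pf4, a platelet chemokine among them, averaged 13.76 ± 0.29 in SM16, 12.60 ± 0.28 in TAN, 6.28 ± 0.44 in G-MDSC and 12.60 ± 0.39 in NN. The other 4 did not follow Pf4: the group means of Itga2b, Gp9, Gp5 and Gp1bb, genes of platelet surface receptors, were 4.79 to 5.83 in SM16, 4.29 to 6.11 in TAN, 4.96 to 6.31 in G-MDSC and 9.97 to 11.03 in NN. Each of these 4 was called lower in SM16, TAN and G-MDSC against NN, as was Ppbp. The part of platelets in the Ppbp result was not tested.

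Of the other receptors listed, Cxcr1, also a receptor of neutrophil-drawing chemokines, was lowest in NN, unlike Cxcr2. It stood at 11.39, 9.97, 11.80, 11.25 and 10.50 in SM16, at 12.49, 12.84 and 12.34 in TAN, at 12.62, 11.84, 11.90 and 12.17 in G-MDSC, and between 8.91 and 9.495 in NN. All NN arrays lay below all others. Cxcr1 rose by 1.83 in SM16, 3.41 in TAN and 2.98 in G-MDSC against NN (adjusted p = 9.6e-07, 1.92e-09 and 6.44e-09), where Cxcr2 was called lower in SM16 and TAN but higher in G-MDSC. It fell by 1.57 in SM16 against TAN (adjusted p = 0.000519; -1.36 and adjusted p = 0.0922 with TAN replicate 4 alone). Ackr1, a decoy receptor that binds Cxcl1 and Cxcl2 without signalling and is known from red cells and venules, was detected on 4 of 5 SM16 arrays, 0 of 3 TAN, 0 of 4 G-MDSC and 7 of 7 NN arrays. It was at least 10.7-fold lower in TAN and at least 14.7-fold lower in G-MDSC than in NN (adjusted p = 3.67e-12 and 4.25e-12). The 5 erythroid markers, added after the data were seen, summed to 199 to 262 in SM16, 163 to 194 in TAN, 260 to 495 in G-MDSC and 16189 to 27375 in NN, and their part in the Ackr1 result was not tested. Ackr3, the decoy receptor of Cxcl12, was not measured by an annotated probe.

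**Figure D4:**
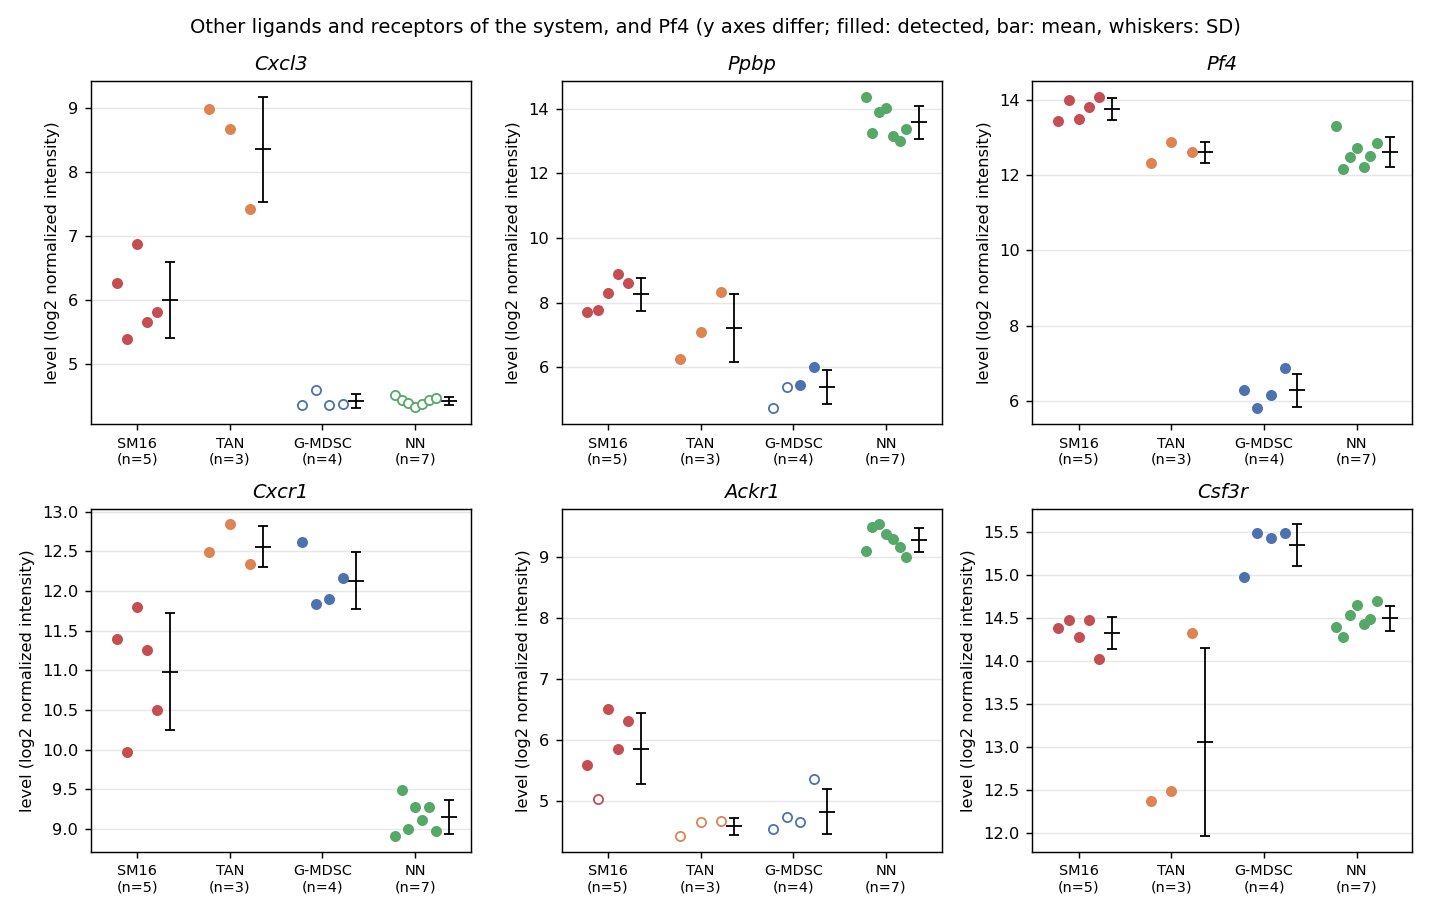
Log2 normalized intensity of Cxcl3, Ppbp, Pf4, Cxcr1, Ackr1 and Csf3r on each array for SM16, TAN, G-MDSC and NN; filled points are detected, bars the mean and whiskers the SD. Cxcl3 is detected on SM16 and TAN arrays only, Ppbp lies at 13.02 or more on NN arrays and at 8.87 or less elsewhere, and Cxcr1 is lowest on NN arrays.

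Of 25 listed genes of receptor signalling and desensitisation, 21 could be tested, and most were called lower in the tumour groups than in NN. In TAN minus NN 3 were called higher and 13 lower (median -0.97, against 0.19 for all genes), and in SM16 minus NN 1 higher and 14 lower (median -0.91, against 0.02). Rgs1 was called higher in both, and Gng2, a G protein gamma subunit gene (0.99), and Vav1, an exchange factor gene (0.93), in TAN minus NN. With TAN replicate 4 alone the TAN minus NN differences were 6.95 for Rgs1, 0.42 for Gng2 and 0.49 for Vav1. In G-MDSC minus NN 5 were higher and 7 lower (median -0.28, against -0.03), a balance that median scaling turned to 6 higher and 2 lower (median 0.16, against 0.19). In SM16 minus TAN 8 were higher and 6 lower (median -0.09, against -0.21), with median scaling 6 were higher and 8 lower, and with TAN replicate 4 alone limma called 0. Against G-MDSC 3 were higher and 11 lower in TAN (median -0.94, or -0.81 with undetected genes at their bounds, against 0.19). In SM16 0 were higher and 12 lower (median -0.77 or -0.56, against 0.05). Of all genes, the shares called higher and lower were 39.3% and 30% in TAN minus NN and 32.9% and 31.7% in SM16 minus NN. They were 22.5% and 23.5% in G-MDSC minus NN and 17.8% and 28.2% in SM16 minus TAN. Against G-MDSC they were 37.6% and 25.6% in TAN and 32.7% and 29.8% in SM16.

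Rgs1, a regulator that shortens signalling of chemokine receptors, rose most in the list against NN, by 6.99 in TAN, 5.78 in SM16 and 4.63 in G-MDSC (adjusted p = 7.91e-10, 7.65e-10 and 1.52e-07). Rgs2, of the same family, rose by 2.06 in G-MDSC against NN and fell by 3.35 in SM16 against G-MDSC (adjusted p = 2.11e-08 and 5.32e-11). Rgs18, a family member of blood cells, was detected on 0 of 5 SM16 and 7 of 7 NN arrays, at least 3.90-fold lower in SM16 (adjusted p = 6.99e-11). Grk6, a kinase that desensitises chemokine receptors including Cxcr4, averaged 8.33 ± 1.46 in SM16, 5.07 ± 0.95 in TAN, 10.53 ± 0.76 in G-MDSC and 10.81 ± 0.16 in NN, detected on 1 of 3 TAN arrays. It was at least 27.03-fold lower in TAN than in NN (adjusted p = 1.92e-08) and at least 4.83-fold higher in SM16 than in TAN (adjusted p = 0.000359), where TAN replicate 4 alone gave 2.17 (adjusted p = 0.152). Rac2, the small GTPase of neutrophil migration, differed by 3.07 in SM16 minus TAN (adjusted p = 0.00166) and by -0.21 with TAN replicate 4 alone (adjusted p = 0.745).

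Genes of marrow release and ageing were mostly called lower in the tumour groups than in the marrow. Of 20 listed 18 were tested, and 2 were called higher and 12 lower both in TAN minus NN (median -1.59, against 0.19 for all genes) and in SM16 minus NN (median -1.96, or -1.84 at bounds, against 0.02). In G-MDSC minus NN 4 were higher and 8 lower (median -0.55, against -0.03). In SM16 minus TAN 5 were higher and 7 lower (median -0.12, against -0.21), of which TAN replicate 4 alone called 1 higher and 1 lower. Against G-MDSC 1 was higher and 10 lower in TAN (median -1.13, or -0.99 at bounds, against 0.19), and 4 higher and 11 lower in SM16 (median -1.01, against 0.05). The shares of all genes called in these comparisons are those given above for the signalling genes.

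The granule proteases Elane and Ctsg are known to cleave Cxcl12 and Vcam1 in the marrow, and their falls were among the largest of the list. Elane was at least 70.7-fold lower in SM16 and at least 44.4-fold lower in TAN than in NN, and fell by 4.76 in G-MDSC (adjusted p = 1.53e-14, 2.83e-12 and 2.24e-11). Ctsg was at least 23.1-fold lower in TAN and at least 25.8-fold lower in G-MDSC (adjusted p = 4.79e-12 and 1.42e-11), and Cebpe, a transcription factor of granule maturation, fell by 6.14 in SM16 against NN (adjusted p = 1.4e-17). The 8 granulocyte precursor markers tested include these 3 genes. All 8 were called lower in SM16 and in TAN against NN and 7 in G-MDSC, where 31.7%, 30% and 23.5% of all genes were. The markers summed to 5005 to 15826 in SM16, 4205 to 8285 in TAN, 52993 to 87672 in G-MDSC and 128991 to 144526 in NN. Whether fewer precursors or less RNA per cell gave these values cannot be told apart. Mmp9, the gelatinase of neutrophil release, fell by 2.03 in SM16, 1.32 in TAN and 1.04 in G-MDSC against NN (adjusted p = 1.53e-12, 2.06e-08 and 3.18e-07).

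Csf3r, the receptor of the growth factor G-CSF that releases neutrophils, averaged 14.32 ± 0.19 in SM16, 13.06 ± 1.10 in TAN, 15.34 ± 0.24 in G-MDSC and 14.495 ± 0.15 in NN. It rose by 0.85 in G-MDSC against NN (adjusted p = 0.00788). Its TAN minus NN fall of 1.44 (adjusted p = 0.000104) was -0.17 with TAN replicate 4 alone (adjusted p = 0.492), as with Cxcr2. Csf3, which encodes G-CSF, was called in none of the 6 comparisons by limma (unadjusted p from 0.375 to 0.986), and its signal passed detection on at most 1 array of a group. Dpp4, a surface protease that inactivates Cxcl12, averaged 5.17 ± 0.53 in SM16, 7.27 ± 0.41 in TAN, 9.58 ± 0.32 in G-MDSC and 7.25 ± 0.53 in NN, and rose by 2.33 in G-MDSC against NN (adjusted p = 1.03e-06).

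Among adhesion genes, Itgam, the alpha chain of the integrin Mac-1, fell by 2.44 in SM16 and 3.23 in TAN against NN (adjusted p = 7.66e-06 and 2.05e-06). Itgb2, its beta chain, was at least 5.06-fold higher in SM16 than in TAN (adjusted p = 0.00175), but differed by -0.14 with TAN replicate 4 alone (adjusted p = 0.887). Vcam1, the endothelial and stromal ligand of the integrin that retains neutrophils, rose by 2.68 in SM16 against TAN (adjusted p = 2.88e-06) and by 1.66 with TAN replicate 4 alone (adjusted p = 0.00372). Vcam1 averaged 12.74 ± 0.22 in SM16, 10.05 ± 0.91 in TAN, 12.13 ± 0.15 in G-MDSC and 12.31 ± 0.38 in NN, so TAN was the low group. The 8 endothelial markers summed to 1769 to 2669 in SM16, 604 to 1058 in TAN, 648 to 815 in G-MDSC and 1707 to 4146 in NN. Their part in the Vcam1 result was not tested. Itga4 was not measured by an annotated probe.

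Markers of other cells also differed between the groups. All 7 macrophage and monocyte markers measured were detected on every array, and their summed linear level was 106958 to 180570 in SM16, 21889 to 88697 in TAN, 7352 to 9705 in G-MDSC and 6395 to 13703 in NN. Within TAN this sum was 21889 on replicate 1, 29231 on replicate 2 and 88697 on replicate 4. Csf1r and Ccr2 were not measured by an annotated probe. Of 8 epithelial and mesothelial markers, 7 were detected on each SM16 array and 5 or 6 on each TAN array, against 0 or 1 in G-MDSC and NN, with sums of 2345 to 3504 in SM16, 2758 to 5507 in TAN, 206 to 252 in G-MDSC and 203 to 277 in NN. Both sums were highest in the tumour groups, and in G-MDSC both lay within or near the NN range. The 6 hair markers summed to 1616 to 25044 in SM16, 268 to 325 in TAN, 160 to 230 in G-MDSC and 200.2 to 254 in NN. The part of macrophages, epithelial and mesothelial cells and hair in the ligand results was not tested.

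For Cxcl12, 5 marrow stroma markers, added after the data were seen, summed to 155 to 233 in SM16, 158 to 173 in TAN, 126 to 141 in G-MDSC and 1136 to 2672 in NN. Igfbp5, Npy and Adipoq were detected on all 7 NN arrays, and Lepr and Foxc1 on none of them. NN replicates 2 and 6 had the lowest Cxcl12 levels of that group (10.15 and 9.91). These arrays also had its lowest stroma sums (1204 and 1136) and its lowest endothelial sums (1941 and 1707). NN replicate 6 had its lowest platelet and megakaryocyte sum. Of the stroma list, Igfbp5 ranked 1 and Npy 8 among the genes with patterns nearest to Cxcl12 over the same arrays. The low stroma sums are therefore not independent of the Cxcl12 levels. The 6 fibroblast markers summed to 532 to 1330 in SM16, 612 to 932 in TAN, 157 to 2102 in G-MDSC and 225 to 321 in NN. The 2102 was that of G-MDSC replicate 1, with 1 marker detected, and the other G-MDSC arrays gave 157 to 215. Thy1 reached 10.94 in G-MDSC, while Col1a1, Col3a1 and Dcn were detected on 0 of 4 G-MDSC arrays. On G-MDSC replicate 1, which had the highest Cxcl1, Cxcl2 and Cxcr4 and the lowest Cxcr2 levels of its group, all 4 B cell and all 4 T cell markers measured were detected, with a T cell sum of 6674 against 3601 to 4465 on the other G-MDSC arrays. The part of these cells in the results was not tested.

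The genes whose patterns lay nearest to each member were found by the root mean square difference of levels centred on each gene's mean over the 19 arrays. Nearest to Cxcl1 were Cdkn1a, which encodes the cell cycle inhibitor p21 (0.74), the chemokine gene Ccl4 (0.82) and the heat shock gene Hspa1a (0.85), where Cxcl1 itself varied by 3.77 around its mean. Nearest to Cxcl2 were Ccl4 (0.77), the AP-1 subunit gene Fosb (0.83) and the chemokine gene Ccl3 (0.91), with Cxcl2 varying by 4.00. Cdkn1a averaged 14.01 ± 0.27 in SM16, 13.97 ± 0.18 in TAN, 9.85 ± 1.10 in G-MDSC and 6.46 ± 0.51 in NN, and Fosb averaged 12.67 ± 0.16, 12.71 ± 0.11, 12.56 ± 1.19 and 5.24 ± 0.74 in the same groups. Each of these 5 genes was lowest in NN, which follows largely from choosing them by likeness over the same arrays.

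Nearest to Cxcr2, which varied by 0.71, were Prxl2c, a peroxiredoxin-like gene (0.25), Cd84, a receptor of the SLAM family (0.26), and Tbp, the TATA-binding protein gene (0.28). Nearest to Cxcr4, which varied by 0.56, were Chtf8, a subunit gene of a clamp loader (0.23), Men1, the menin gene (0.23), and Tbc1d2b, a TBC domain gene (0.25). The group means of Prxl2c, Cd84 and Tbp ran in the order of those of Cxcr2. Those of Chtf8, Men1 and Tbc1d2b ran in the order of Cxcr4. Likeness over the same arrays was the rule that chose these genes, so the shared order is no separate result. Nearest to Cxcl12, which varied by 2.64, were Igfbp5, an insulin-like growth factor binding protein gene (0.54), Treml1, a platelet receptor gene (0.56), and Mrvi1, a gene of smooth muscle and platelets (0.63). Treml1 averaged 6.45 ± 0.56 in SM16, 6.64 ± 0.60 in TAN, 5.15 ± 0.24 in G-MDSC and 11.14 ± 0.47 in NN, and Igfbp5 averaged 5.55 ± 0.54, 5.11 ± 0.15, 4.47 ± 0.03 and 9.61 ± 0.76.

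**Figure D5:**
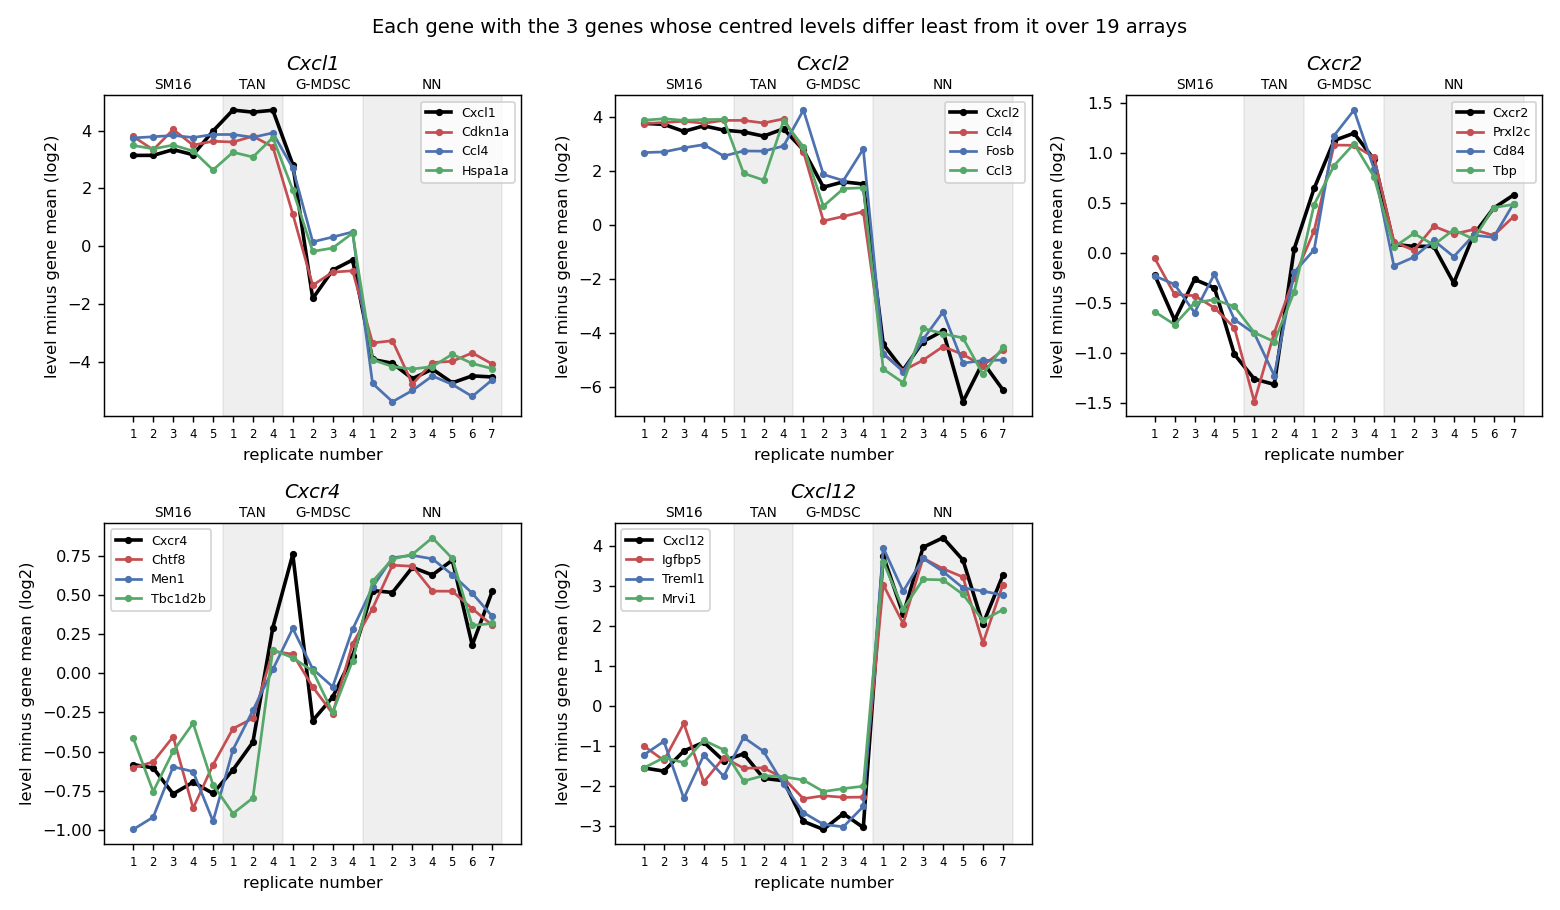
Log2 level minus the gene's mean over the 19 arrays, for each of the 5 genes in black and the 3 genes nearest to it in colour, with the arrays in order of SM16, TAN, G-MDSC and NN and shading for alternate groups. Cxcl1 and its nearest genes fall together from the tumour arrays to the NN arrays, with a root mean square difference of 0.74 to 0.85. Cxcl12 and its nearest genes are high on NN arrays alone. The nearest genes were chosen by likeness over these same arrays.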

How the data were processed

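RNA of 19 samples was measured on mouse Illumina BeadChips. The deposited intensity values are signals per probe that the authors did not normalize, each with a deposited detection p-value, read with GenomeStudio per the submitters' processing notes, which state no version. The labels' treatment and extraction texts describe fixed biopsies rather than neutrophils, and nothing was taken from them. Groups and replicate numbers came from the sample titles.

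In limma 3.58.1 under R 4.3.3, neqc corrected the background from the detection p-values, added an offset of 16 and quantile-normalized the arrays. Probes detected at p under 0.01 on at least 3 arrays were kept, 13945 of 25697, of which 13088 had a gene symbol in the platform annotation and 857 had none. Each gene was read from its probe with the highest mean, which left 9523 genes. One limma fit over the 4 groups, with a variance trend and 15 residual degrees of freedom, gave 6 comparisons, adjusted by Benjamini-Hochberg at 0.05. Where a group's undetected arrays were at least as many as its detected ones, a fold is given as a bound against the lowest detected signal of each array. No probe's level was set against another probe's.

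The members, gene lists and tests were chosen with earlier results of these data known, and the platelet, erythroid and marrow stroma markers were added after the values were seen. Genes named beside the members are 12 listed relatives and, in each list of 10 or more genes, the pair of called genes with the largest change in a comparison; Pf4, Ackr1, Gng2, Vav1 and single markers were named after their values were seen. Alternatives covered background correction, scaling, the authors' deposited normalized intensity table of 17004 probes, the filter, a replicate block, 2-group fits, array weights, batch, TAN replicate 4 alone, the variance trend, other probes and leaving out each array. The fit was tested on simulated data.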

Additional observations from a re-analysis of the deposited data

Results flagged for a closer look

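In 3 of 15 series of group levels tested, 1 array lay further from its nearest neighbour than Dixon's 95% critical value allows for the range of its group, where chance would mark about 1 in 20 such series. Cxcl1 in SM16 replicate 5 was the highest of its group at 13.13, with the nearest array at 12.48. Cxcl2 in G-MDSC replicate 1 was the highest of its group at 14.67, with the nearest at 13.50, and this array also carried the B cell and T cell markers described above. Cxcr4 in NN replicate 6 was the lowest of its group at 12.87, with the nearest at 13.21, and without it the G-MDSC minus NN difference of Cxcr4 was called (-0.49, adjusted p = 0.0288, against 2.18e-06 to 0.860 over all its alternatives).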

How the results depend on the processing

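Of 608 recomputed differences of single genes, 563 kept their direction and their side of the threshold, 11 reversed, 16 passed the threshold anew and 18 no longer passed it. Median scaling moved the median of all genes in G-MDSC minus NN to 0.19, against -0.03, in TAN minus G-MDSC to -0.08, against 0.19, in SM16 minus G-MDSC to -0.32, against 0.05, and in SM16 minus NN to -0.09, against 0.02. In SM16 minus TAN it gave Cxcl1 -2.08, Cxcl2 -0.49, Cxcr2 -0.33 and Cxcr4 -1.03, with 2 genes called. It gave Cxcr2 -0.58 in TAN minus NN, Cxcr4 0.041 in G-MDSC minus NN and Cxcr4 -0.51 in TAN minus G-MDSC. Without background correction Cxcl12 was 0.53 in TAN and 0.68 in SM16 against G-MDSC, and with the authors' deposited normalized values they were 0.55 and 0.71. The batch term gave Cxcr2 0.46 in G-MDSC minus NN, Cxcl2 0.93 and Cxcl12 0.38 in TAN minus G-MDSC (2 called), and Cxcl2 1.13 and Cxcl12 0.69 in SM16 minus G-MDSC (3 called). Within the batch Cxcl1 was -1.33 and Cxcr4 -0.43 in SM16 minus TAN (2 called), Cxcr2 -0.52 in SM16 minus NN and Cxcr2 0.46 in G-MDSC minus NN. Fits of the 2 groups alone called Cxcl1 in SM16 minus TAN (-1.33, 1 called) and Cxcr4 in G-MDSC minus NN (-0.44). Array weights called Cxcl1 (-1.38) and Cxcr2 (0.83) in SM16 minus TAN (2 called), Cxcr4 in G-MDSC minus NN (-0.69) and Cxcr4 in TAN minus G-MDSC (-0.36). TAN replicate 4 alone gave Cxcr2 -0.54 and Cxcr4 -0.97 in SM16 minus TAN (1 called), Cxcr2 -0.12 and Cxcr4 -0.25 in TAN minus NN (3 called), and Cxcr4 0.19 and Cxcl12 1.06 in TAN minus G-MDSC. The second Cxcr2 probe gave -0.27 in SM16 minus TAN, -0.038 in TAN minus NN and -0.31 in SM16 minus NN. The second Cxcl12 probe gave -0.080 in SM16 minus TAN, -0.0037 in TAN minus G-MDSC and -0.084 in SM16 minus G-MDSC, and the third -0.32 and -0.24 against G-MDSC. The cause of these shifts was not tested.

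Leaving out 1 array at a time moved Cxcr4 in G-MDSC minus NN between -0.65 and -0.30, Cxcr4 in TAN minus G-MDSC between -0.63 and -0.14, Cxcr2 in SM16 minus TAN between 0.11 and 0.78 and the number called in SM16 minus TAN between 0 and 1. No pairing by replicate number was seen. Of same-numbered pairs, 6 of 22 correlated above 0.1 in their deviations from the group means, as did 26 of 109 differently numbered pairs. Only 2 of 17 samples correlated best with their own number. Such correlations in groups this small cannot exclude a pairing. With the replicate block Cxcr2 in SM16 minus NN was -0.52 (adjusted p = 0.0657), and no other call changed. Over all genes, calls in SM16 minus TAN numbered 4380, against 451 with TAN replicate 4 alone, 2365 in the fit of 2 groups and 6944 with array weights; in TAN minus G-MDSC and SM16 minus G-MDSC they numbered 6022 and 5946, against 3885 and 3649 with the batch term. G-MDSC shares no batch with SM16 or TAN, so those comparisons and the batch meet only through the NN arrays. Signals near background limit Cxcl12 outside NN, Cxcl1 in NN and the second Cxcr2 probe.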
